A study of Mus musculus with 38 samples.

Results

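The 10 genes Tsc22d3, Ddit4, Txnip, Sgk1, Per1, Klf9, Il1r2, Tsc22d1, Btg1 and Il7r are known targets that glucocorticoids induce, and they were followed by symbol among the 31053 symbols counted in mouse Th17 cells. All 10 were found, and 9 had enough counts to be tested in most comparisons, while Klf9 did not pass the filter on low counts in any. The study counted messenger RNA in 38 libraries, each made from 2000 sorted T cells of C57/B6 origin. In culture, WT and IL-23R KO (knockout) naive T cells were turned into inflammatory Th17 cells and kept for 2 days without or with dexamethasone (Dex, a synthetic glucocorticoid), with 4 libraries in each of the 4 groups. In vivo, donor T cells had the 2D2 receptor (specific for myelin oligodendrocyte glycoprotein), were made into Th17 cells, transferred into WT recipients and taken back at peak disease in experimental autoimmune encephalomyelitis, a model of multiple sclerosis. Donors were GR WT (n = 4) or GR cKO (n = 4; GR, the glucocorticoid receptor, encoded by Nr3c1; cKO, conditional knockout), with cells from the central nervous system (CNS). Other donors were CHD1 WT (n = 3) or CHD1 cKO (n = 4; CHD1, a chromatin remodeller), with cells from the CNS and from the draining lymph node (dLN). All in vivo groups therefore share the 2D2 receptor, the transfer and the WT host, and no in vivo group received Dex. The sources used here do not name the driver of the conditional deletions, the age of the mice, or whether replicate libraries were separate animals or cultures, so each p value reflects spread among libraries alone, which may be technical.

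Glucocorticoids enter the cell and bind GR, which is held by heat shock proteins and FK506-binding proteins until the hormone arrives. The receptor then moves to the nucleus and binds response elements made of paired half-sites near its target genes. In T cells the induced targets include restraints on inflammatory signalling and on growth, and corticosterone made by the animal keeps part of this programme active without any drug.

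Levels are CPM, the count of a gene relative to the deposited total of its library, and log2 fold changes with their standard error (SE) come from a model that also scales the libraries by the trimmed mean of M values (TMM). A gene was called where its edgeR quasi-likelihood p, two-sided and adjusted by Benjamini-Hochberg over all genes tested, was under 0.05. Library totals ran from 3148634 to 9159671 counts, and a count of 0 allowed up to 0.328 to 0.953 CPM. The KO libraries with Dex stood apart, with 31.4 to 38.4% of counts in repeat and ribosomal RNA features against 14.3 to 26.2% in the other cultures, and with 0.359 to 0.447% in mitochondrial features against 1.46 to 2.26%. TMM scaling multiplied their CPM by 1.13 to 1.34, and that of the other cultures by 0.844 to 1.06, so their CPM understates fitted rises and overstates fitted falls. In vivo the repeat and ribosomal RNA share was 31.6 to 42.2% in the GR libraries. It was 13.3 to 33.2% in the CHD1 libraries of the CNS and 42.4 to 60.1% in those of the dLN. Nr3c1 levels were 11.1 to 18.0 CPM with GR WT donors and 5.25 to 5.68 CPM with GR cKO donors, without overlap. Chd1 did not separate the CHD1 genotypes in either tissue, and Il23r was still counted in the KO cultures (4.52 CPM on average without Dex against 7.40 in WT), so these genotypes rest on the labels. The summed level of 10 T cell markers was 1783 to 3510 CPM in culture and 7295 to 41862 CPM in vivo. Il17a was listed at 0 in all 7 dLN libraries.

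Promoter sequences were read first for letters that GR and related factors bind, in the 250 bases before each RefSeq start (assembly GRCm38.p6, the patch of mm10), on both strands. All 10 genes had at least 1 such window, 22 in all, among 32851 windows of 27025 genes. The full palindrome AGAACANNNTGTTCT was in 3 windows (0.00913%), and 1 of them was a start of Sgk1, from -189 to -175 before it. Its inner core GNACANNNTGTNC was in 127 windows (0.387%), among them that Sgk1 window and Txnip, from -172 to -160. The single half-site AGAACA, which the palindrome also contains, was in 16.1% of windows and in those of Sgk1, Tsc22d1 and Tsc22d3. The E-box CACGTG, the letters bound by clock factors, was in 6.02% of windows and in those of Per1, Il1r2, Sgk1 and Tsc22d1. The forkhead letters GTAAACA were in 3.17% of windows and in those of Txnip, Btg1 and Klf9. The 4 stretches below are shown because they hold the letters in genes that the results turn on, with the match in capitals and every line on the strand of its gene. They are Sgk1 (chr10:21993661-21993755, plus strand), Txnip (chr3:96557745-96557837, plus strand), Tsc22d3 (chrX:140600662-140600747, minus strand) and Per1 (chr11:69098743-69098828, plus strand).
Sgk1: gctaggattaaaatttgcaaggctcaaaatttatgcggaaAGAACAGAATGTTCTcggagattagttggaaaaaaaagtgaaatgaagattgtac
Txnip: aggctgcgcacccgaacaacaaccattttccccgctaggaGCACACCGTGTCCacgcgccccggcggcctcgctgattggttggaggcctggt
Tsc22d3: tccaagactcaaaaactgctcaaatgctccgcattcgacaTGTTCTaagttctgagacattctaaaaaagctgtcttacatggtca
Per1: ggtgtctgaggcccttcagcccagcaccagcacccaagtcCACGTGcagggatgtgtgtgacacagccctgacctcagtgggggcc
A match is a run of letters and not a measured binding site, and response elements lie outside such windows too. Sgk1 has 6 starts in these tables, Tsc22d3 has 3 and Per1 has 2, and counts per gene do not tell which start was used.

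The first comparison asked what Dex did to the 10 genes in WT Th17 cultures. The largest fitted changes were those of Sgk1, Tsc22d3 and Txnip. Of 9 genes tested, 4 rose (Sgk1, Tsc22d3, Txnip and Ddit4) and none fell, where 8.08% of all 10813 genes were called and 3.88% were called higher. The median log2 fold change of the 9 was 0.76, against 0.01 over all genes tested.

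Tsc22d3 encodes GILZ, a leucine zipper protein that binds and restrains NF-kB and AP-1 (mm10 chromosome X, 140539528 to 140600659, minus strand). It stood at 25.4, 21.8, 31.1 and 27.7 CPM in the WT controls 1 to 4 and at 61.3, 56.1, 84.6 and 87.5 CPM with Dex. Every Dex library lay above every control, as in 4.23% of all genes, and the fitted rise was 1.57 ± 0.20 on the log2 scale (edgeR adjusted p = 1.06e-04). The half-site printed above lies upstream of 1 of its 3 starts.

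Txnip encodes an alpha-arrestin that binds thioredoxin and lowers glucose uptake (chromosome 3, 96557957 to 96561883, plus strand). Its controls were tightly grouped at 28.9, 26.8, 25.7 and 27.4 CPM, and the Dex libraries held 60.0, 49.4, 66.8 and 67.4 CPM. The groups did not overlap, and the rise was 1.28 ± 0.15 (edgeR adjusted p = 3.99e-05). Exons of the antisense gene Gm15441 cover 19.4% of the Txnip exons, and the library kit does not mark strand, so reads there cannot be told apart. Gm15441 itself was counted at no more than 2.75 CPM in any library. No other gene of the 10 shares exon bases with another annotated gene.

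Ddit4 encodes REDD1, an inhibitor of the growth kinase complex mTORC1 (chromosome 10, 59949669 to 59951834, minus strand). It stood at 47.1, 34.2, 53.6 and 47.9 CPM in controls and at a narrow band of 68.8, 66.9, 64.7 and 64.8 CPM. The groups did not overlap, with a rise of 0.65 ± 0.17 (edgeR adjusted p = 0.0256). This call was the weakest of the 4, as it was lost without WT control library 1, 2 or 4 or WT Dex library 1, 3 or 4, where the change was 0.54 to 0.67 (highest edgeR adjusted p = 0.0911).

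Sgk1 encodes a kinase that phosphorylates Foxo1, Nedd4l and Ndrg1 and that is known in Th17 cells for upholding the IL-23 receptor (chromosome 10, 21882184 to 21999903, plus strand). It stood at 13.6, 8.03, 8.21 and 9.85 CPM in WT controls and at 33.2, 26.8, 28.5 and 26.9 CPM with Dex. It was the largest rise of the 9 in WT cells, 1.65 ± 0.18 (edgeR adjusted p = 2.90e-05), without overlap. The full palindrome printed above is at 1 of its starts.

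The other 5 genes were not called in WT cells. Il1r2, which encodes a decoy receptor that takes up interleukin 1 without signalling (chromosome 1, 40074079 to 40125231), stood at 167, 79.9, 113 and 108 CPM in controls and at 215, 208, 162 and 147 CPM with Dex. Control library 1 overlapped the Dex range, and the change was 0.76 ± 0.24 (edgeR adjusted p = 0.0608). It passed the threshold without that library (0.98, edgeR adjusted p = 0.0205), with no filter on low counts, with a minimum mean of 10 CPM and in a fit of the 8 libraries compared. Tsc22d1, a paralogue of Tsc22d3 (chromosome 14, 76414961 to 76507765), was scarce, at 0.657 to 2.59 CPM in controls and 2.54 to 4.75 with Dex (1.10 ± 0.39, edgeR adjusted p = 0.102). Il7r, the alpha chain of the receptor for the survival cytokine interleukin 7 (chromosome 15, 9505788 to 9530176), was 37.8 ± 4.83 and 49.2 ± 9.47 CPM (SD, n = 4) (0.49 ± 0.17, edgeR adjusted p = 0.0847). Btg1, an antiproliferative gene tied to quiescence (chromosome 10, 96617006 to 96622809), was 14.1 ± 2.07 and 17.8 ± 2.24 CPM (0.45 ± 0.17, edgeR adjusted p = 0.128). Per1, a repressor of the circadian clock (chromosome 11, 69095217 to 69109960), was level, at 30.2 to 41.7 CPM in controls and 26.8 to 34.9 with Dex. Its interval, taken as 1.96 SE on each side, ran from -0.33 to 0.33 on the log2 scale.

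**Figure D1:**
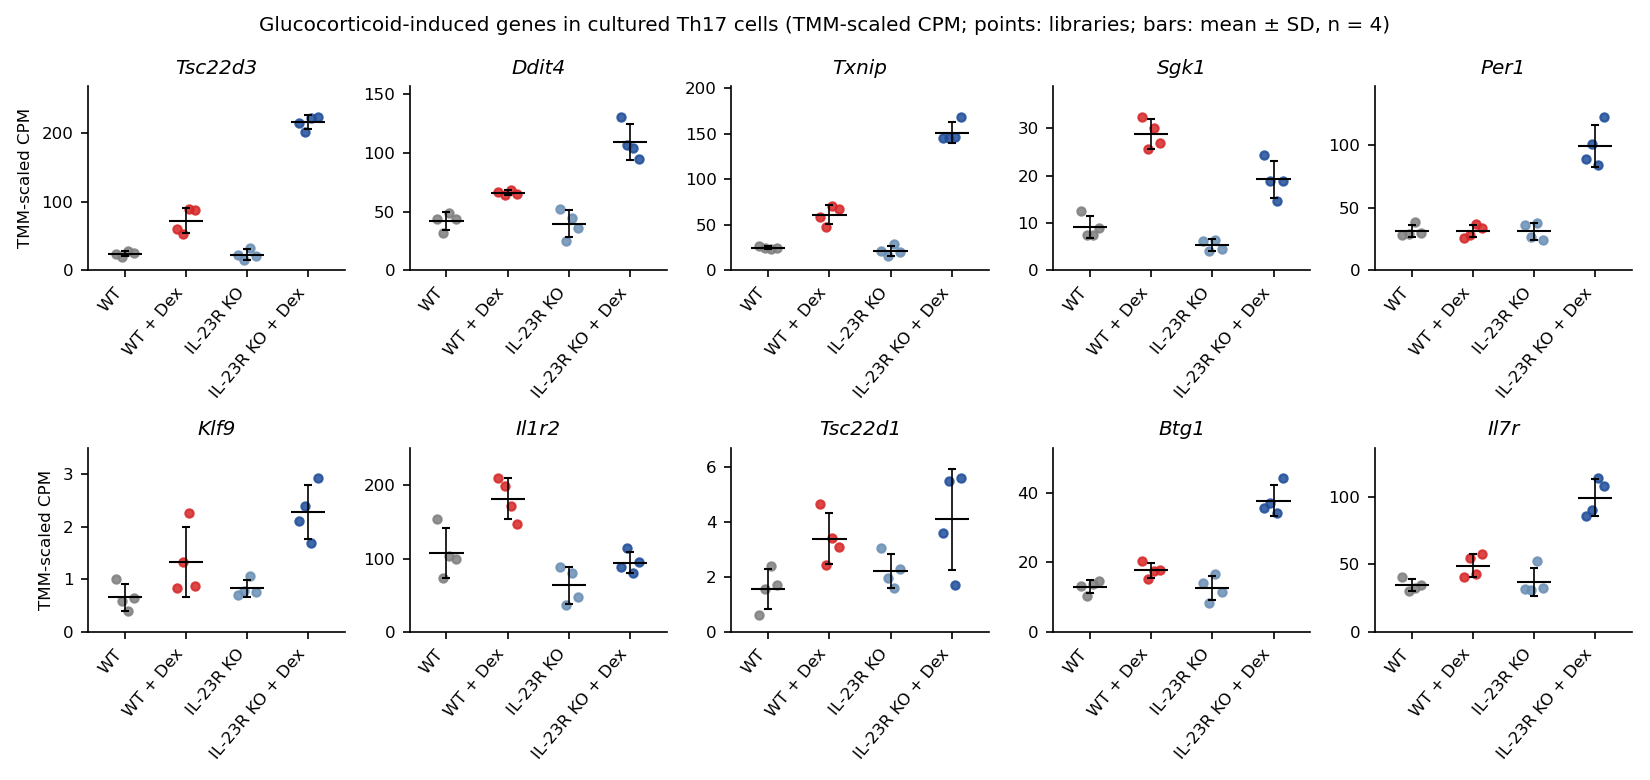
TMM-scaled CPM of the 10 genes (1 panel each, linear axis from 0) in the 4 culture groups; points are libraries, lines and bars the mean ± SD over 4 libraries. Tsc22d3 sits at 201 to 223 in KO cells with Dex, above 53.6 to 89.5 in WT cells with Dex, while Sgk1 is higher in WT cells with Dex than in KO cells with Dex.

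In the IL-23R KO cultures Dex raised more of the genes. Tsc22d3, Txnip, Sgk1, Per1, Btg1, Ddit4 and Il7r rose, 7 of 9 tested, and none fell. Over all genes 54.7% were called in this comparison and 27.3% were called higher. The median of the 9 was 1.60, against 0.01 over all genes.

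Tsc22d3 went from 24.3, 17.1, 34.6 and 24.9 CPM in KO controls 5 to 8 to 160.0, 177, 179 and 182 CPM with Dex, a fitted rise of 3.26 ± 0.20 (edgeR adjusted p = 1.51e-09). Txnip went from 22.0, 18.4, 30.1 and 23.6 CPM to 108, 128, 118 and 137 CPM (2.85 ± 0.15, edgeR adjusted p = 2.67e-10). Ddit4 went from 55.5, 29.97, 47.2 and 42.7 CPM to 97.5, 94.3, 84.4 and 76.9 CPM (1.47 ± 0.17, edgeR adjusted p = 1.98e-06). In each of these 3 genes every KO library with Dex lay above every KO control, as in 10.9% of all genes. Sgk1 went from 6.69, 4.84, 6.74 and 5.39 CPM to 18.2, 16.6, 11.9 and 15.3 CPM (1.86 ± 0.21, edgeR adjusted p = 1.05e-06), again without overlap.

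Per1, Btg1 and Il7r were not called in WT cells and rose here. Per1 stood at 38.4, 31.1, 39.6 and 28.3 CPM in KO controls and at 66.1, 88.5, 67.9 and 99.3 CPM with Dex (1.68 ± 0.16, edgeR adjusted p = 2.35e-07). Btg1 stood at 14.9, 9.68, 17.4 and 13.7 CPM and at 26.4, 32.5, 27.7 and 35.8 CPM (1.60 ± 0.17, edgeR adjusted p = 6.62e-07). Il7r stood at 33.7, 36.9, 55.1 and 38.4 CPM and at 63.7, 79.5, 91.7 and 87.5 CPM (1.44 ± 0.17, edgeR adjusted p = 1.66e-06). None of the 3 overlapped between groups. Il1r2 (0.58 ± 0.25, edgeR adjusted p = 0.0611) and Tsc22d1 (0.86 ± 0.39, edgeR adjusted p = 0.0677) did not pass. Il1r2 passed without KO control library 5 or 7 and with a minimum mean of 10 CPM, and Tsc22d1 passed without KO Dex library 7.

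Whether the Dex response itself differed between genotypes was tested by the interaction, the KO response minus the WT response. It was positive and called for 6 of 9 genes, where 32.2% of all genes were called and 15% were called with a positive sign. The values were 1.69 ± 0.23 for Per1 (edgeR adjusted p = 4.75e-05), 1.68 ± 0.28 for Tsc22d3 (2.36e-04), 1.56 ± 0.21 for Txnip (3.10e-05), 1.15 ± 0.24 for Btg1 (0.00172), 0.94 ± 0.24 for Il7r (0.00553) and 0.82 ± 0.24 for Ddit4 (0.0164). Sgk1 was not called (0.20 ± 0.27, interval -0.33 to 0.74), nor were Il1r2 (-0.18 ± 0.35, interval -0.86 to 0.50) and Tsc22d1 (-0.23 ± 0.55, interval -1.31 to 0.84). Leaving out any 1 of the 16 libraries kept the same count of 6. The KO libraries with Dex are also those that stood apart in repeat and mitochondrial counts. In them the 6 naive and memory-like T cell markers summed to 1164 to 1525 CPM, against 460 to 745 CPM in the other cultures. The 5 CD8 T and NK cell markers summed to 45.9 to 77.3 CPM there, against 108 to 845 CPM in the other cultures. Of these 5, Cd8a was at 0 in WT controls and in both KO groups, Klrb1c in KO controls and Ncr1 in WT cells with Dex. Their sum rests on the other genes of the list and does not tell whether CD8 T or NK cells were present. The part of these shifts in the interaction was not tested.

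For the 6 genes with a positive interaction, comparing the genotypes directly placed the difference in the treated cultures. Sgk1 and Il1r2 leaned lower in KO cells both without and with Dex. Without Dex edgeR called none of the 9 genes between KO and WT, where 0.684% of all genes were called. At an unadjusted p under 0.05, 2 of the 9 (Sgk1 and Il1r2) and 1051 of 10813 genes passed, and DESeq2 called none of the 9 and 122 genes. Sgk1 was lower in every KO control than in every WT control (-0.79 ± 0.21, edgeR adjusted p = 0.129), a lack of overlap in that direction shared by 2.18% of genes. Il1r2 was -0.77 ± 0.25 without Dex (edgeR adjusted p = 0.247), with overlapping groups. With Dex 8 of the 9 differed, where 45.9% of all genes were called, 22.2% higher and 23.7% lower. The 6 genes with a positive interaction were higher in KO cells, from 0.72 ± 0.17 for Ddit4 to 1.66 ± 0.16 for Per1, and none of the 6 overlapped between genotypes, as in 10.3% of genes. Sgk1 was lower in KO cells (-0.58 ± 0.17, edgeR adjusted p = 0.0111), and so was Il1r2 (-0.95 ± 0.24, edgeR adjusted p = 0.00434). The decoy receptor gene held 66.3, 100.3, 64.5 and 77.3 CPM in KO cells with Dex, all under the 147 to 215 CPM of WT cells with Dex, as in 34.7% of genes. The level of Sgk1 and Il1r2 thus ordered the Dex cultures opposite to Tsc22d3 and Txnip.

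Klf9 encodes a Kruppel-like transcription factor (chromosome 19, 23141226 to 23168134). It was counted 0 to 11 times per library, so it did not pass the filter on low counts. In culture it stood at 0.432 to 1.10 CPM in WT controls, 0.863 to 2.14 CPM in WT with Dex, 0.743 to 1.12 CPM in KO controls and 1.37 to 2.38 CPM in KO with Dex. The KO groups did not overlap. The share of 10.9% for such a lack of overlap covers only genes that passed the filter, so it does not describe genes as scarce as Klf9. In vivo it ranged from 0 to 1.42 CPM.

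Families around the 10 genes were counted from lists. Of 20 other glucocorticoid-induced genes tested, 5 rose and 0 fell in WT cells (median 0.36), where 3.88% of all genes were called higher. In KO cells 17 rose and 0 fell (median 1.39), where 27.3% of all genes were called higher. They included Bcl2l11, which encodes the death protein BIM, at 1.32 ± 0.27 in WT and 3.49 ± 0.27 in KO cells. Mt2, a metallothionein gene, rose by 2.40 ± 0.12 and the phosphatase gene Dusp1 by 2.28 ± 0.16 in KO cells. Fkbp5, the FK506-binding protein that holds GR, had a smaller Dex response in KO cells than in WT cells. Its TMM-scaled CPM was 5.37 to 6.82 in KO controls and 6.23 to 8.11 in KO cells with Dex. Fkbp5 rose in WT cells (1.06 ± 0.17, edgeR adjusted p = 0.00117), and its interaction was -0.78 ± 0.25 (edgeR adjusted p = 0.0239), opposite in sign to that of Tsc22d3. In the TSC22 family Tsc22d4 rose in KO cells (1.32 ± 0.11). Among alpha-arrestins and thioredoxin genes, Arrdc3, a relative of Txnip, rose by 3.65 ± 0.33 in KO cells, while thioredoxin itself (Txn1) fell in WT (-0.40 ± 0.09) and in KO cells (-1.32 ± 0.09). The thioredoxin reductase gene Txnrd1 also fell in KO cells (-0.81 ± 0.18).

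The list of SGK kinases and substrates, which includes Sgk1 itself, had 4 genes tested. All 4 rose in KO cells and 2, Sgk1 among them, in WT cells, against 27.3% and 3.88% of all genes. Ndrg1, a substrate of the kinase, rose by 0.64 ± 0.15 in WT and 3.03 ± 0.16 in KO cells. Of 11 clock genes tested, 5 rose in KO cells with none lower, where 27.3% of all genes were called higher, among them Per1, Ciart (2.23 ± 0.25), Arntl (1.80 ± 0.16) and Nr1d1 (1.15 ± 0.34), all parts of the clock loop. In WT cells none of the 11 rose and Bhlhe40 fell (-0.25 ± 0.06). In the BTG and TOB family Btg2 rose beside Btg1 in KO cells (0.51 ± 0.09). Of 8 receptors tested in the common gamma chain list, 3 rose and 2 fell in KO cells, a share near the 54.7% of all genes called, with Il2rb (0.91 ± 0.08) and Il4ra (0.46 ± 0.08) beside Il7r on one side and Il2ra (-0.33 ± 0.08) on the other. Of 6 mTORC1 brakes, Sesn1 (0.68 ± 0.16) rose beside Ddit4 in KO cells, while Sesn2 fell in WT cells (-0.56 ± 0.12). Nr3c1 rose in KO cells (1.60 ± 0.20, edgeR adjusted p = 4.05e-06) and was not called in WT cells (0.24 ± 0.22), with an interaction of 1.36 ± 0.30 (edgeR adjusted p = 0.00222). Of the chaperones that hold GR, Fkbp4 (-1.60 ± 0.14), Hsp90ab1 (-1.10 ± 0.05) and Ptges3 (-0.76 ± 0.13) fell in KO cells.

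The next comparison asked what loss of GR did to the genes in CNS cells, where any ligand came from the animal. Of the 4 genes that Dex raised in WT cells, 3 stood lower, while Sgk1 did not. Il1r2 did not stand lower either. Tsc22d3, Ddit4 and Txnip were lower in every GR cKO library than in every GR WT library. Such a lack of overlap with the cKO lower was found in 5.37% of 11148 genes. No gene passed the edgeR threshold in this comparison (0%), so none of the 9 did, and the lowest edgeR adjusted p was 0.113, for Nr3c1. At an unadjusted p under 0.05, 1226 genes and 4 of the 9 passed, namely these 3 and Il1r2, which was higher in the cKO. DESeq2 called 122 genes, among them Tsc22d3, Ddit4 and Txnip.

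Tsc22d3 held 114, 185, 129 and 146 CPM across GR WT libraries 1 to 4, against 78.1, 62.2, 59.6 and 51.4 CPM for GR cKO libraries 5, 6, 7 and 9. The difference was -1.09 ± 0.17 (edgeR adjusted p = 0.153, DESeq2 adjusted p = 3.05e-06), an estimate 2.12-fold lower. Ddit4 stood at 20.9, 20.7, 23.9 and 18.1 CPM in WT and at 9.02, 12.1, 7.66 and 9.07 CPM in cKO libraries (-1.05 ± 0.15, edgeR adjusted p = 0.153, DESeq2 adjusted p = 5.95e-05). Txnip stood at 98.5, 134, 97.3 and 88.9 CPM and at 55.7, 54.6, 65.9 and 50.9 CPM (-0.78 ± 0.14, edgeR adjusted p = 0.157, DESeq2 adjusted p = 2.62e-04). For these 3 genes the calls differ by tool while the values do not, since the DESeq2 estimates were -1.09, -1.05 and -0.78. They ranked 59th, 66th and 155th from the lowest of 11148 log2 fold changes.

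Of the other 6 genes, none lacked overlap between the groups. Per1 stood at 28.4, 39.5, 27.5 and 25.6 CPM in WT and at 27.7, 21.7, 19.3 and 17.5 CPM in cKO libraries (-0.39 ± 0.17, edgeR adjusted p = 0.454), with cKO library 5 inside the WT range. Sgk1 stood at 26.5, 105, 74.4 and 53.6 CPM in WT and at 137, 77.3, 120.1 and 57.3 CPM in cKO libraries (0.71 ± 0.40, edgeR adjusted p = 0.555), a wide spread in both groups. Il1r2 stood at 12.4, 3.73, 8.55 and 13.6 CPM and at 21.3, 12.9, 16.8 and 16.2 CPM (0.91 ± 0.35, edgeR adjusted p = 0.369), with cKO library 6 inside the WT range. Tsc22d1 (-0.03 ± 0.35), Btg1 (-0.02 ± 0.15) and Il7r (0.11 ± 0.29) were near 0, with intervals from -0.72 to 0.65, from -0.32 to 0.28 and from -0.45 to 0.67. In the GR WT libraries these 3 averaged 4.12, 47.9 and 56.2 CPM.

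Summed levels of some cell type markers also differed between the GR groups, while the macrophage and T cell sums overlapped. The summed level of 16 macrophage and microglia markers, all of them counted in both groups, was 3498 to 11314 CPM in WT and 6977 to 15402 CPM in cKO libraries. The 5 CD8 T and NK cell markers summed to 1121 to 1623 CPM in WT and 579 to 995 CPM in cKO, and the 6 regulatory T cell markers to 327 to 396 and 216 to 302 CPM, both without overlap. The 6 B cell markers summed to 8.62 to 18.2 CPM in WT and 23.7 to 78.9 CPM in cKO, and the 10 T cell markers to 21791 to 31625 and 16166 to 23258 CPM. The part of these shifts in the 3 lower genes was not tested. In bulk libraries, fewer cells of a type and less RNA per cell cannot be told apart. In culture the macrophage sum was 50.9 to 82.5 CPM, with 8 to 10 of the 16 markers counted in each group and Lyz2, C1qb and C1qc at 0 in all 16 libraries.

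**Figure D2:**
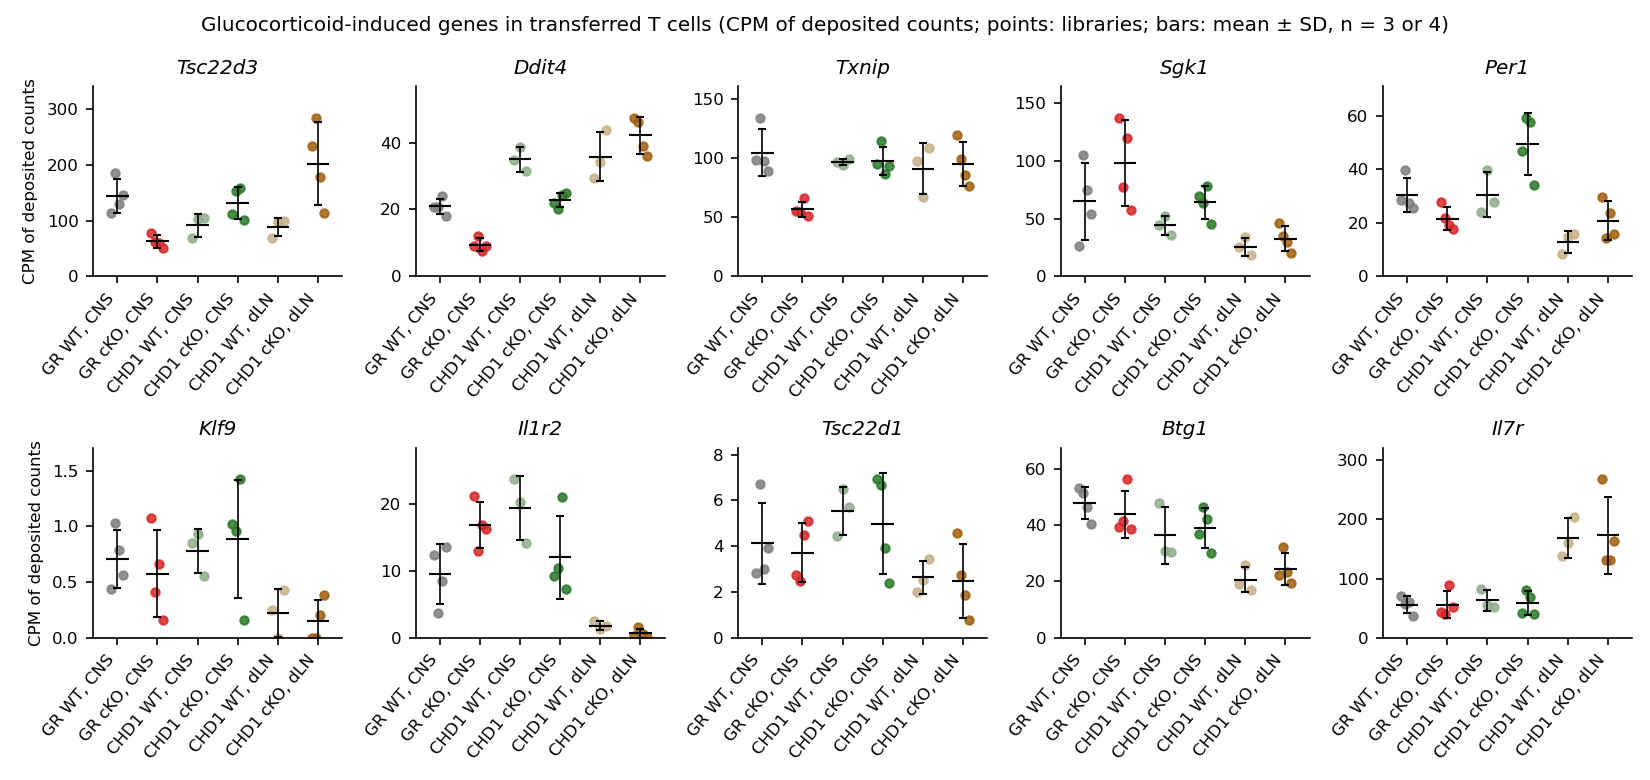
CPM of the 10 genes (1 panel each, linear axis from 0) in the 6 in vivo groups; points are libraries, lines and bars the mean ± SD over 3 or 4 libraries. The GR cKO points of Tsc22d3 (51.4 to 78.1), Ddit4 (7.66 to 12.1) and Txnip (50.9 to 65.9) lie under all GR WT points, and Il7r is highest in the dLN.

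Set side by side gene by gene, the Dex response in WT cultures and the GR cKO difference had opposite signs in 5 of 9 genes (48.7% of 9973 genes tested in both), and the Dex response in KO cultures in 6 of 9 (47.8% of genes). The count over the 9 is thus near that of all genes, and it was 3 without GR cKO library 5 or 6. Tsc22d3 was 1.57 with Dex in WT cells, 3.26 in KO cells and -1.09 with GR loss. Txnip was 1.28, 2.85 and -0.78, and Ddit4 0.65, 1.47 and -1.05. Sgk1 was positive throughout, at 1.65, 1.86 and 0.71, and so was Il1r2, at 0.76, 0.58 and 0.91. Per1 was 0.00 in size in WT cells, 1.68 in KO cells and -0.39 with GR loss. Of the 388 genes called higher with Dex in WT cells and tested in both, 60.3% had a negative value with GR loss. Of the 2690 genes called higher with Dex in KO cells, 51.7% did. The share is not particular to GR loss. For genes called higher with Dex in WT cells and CHD1 loss, it was 65.1% of 393 in the CNS and 27.4% of 369 in the dLN. The share of negative values over all genes tested was not counted, so these percentages have no base to be read against. The culture and CNS libraries share no sample, but they differ in ligand, place and time.

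**Figure D3:**
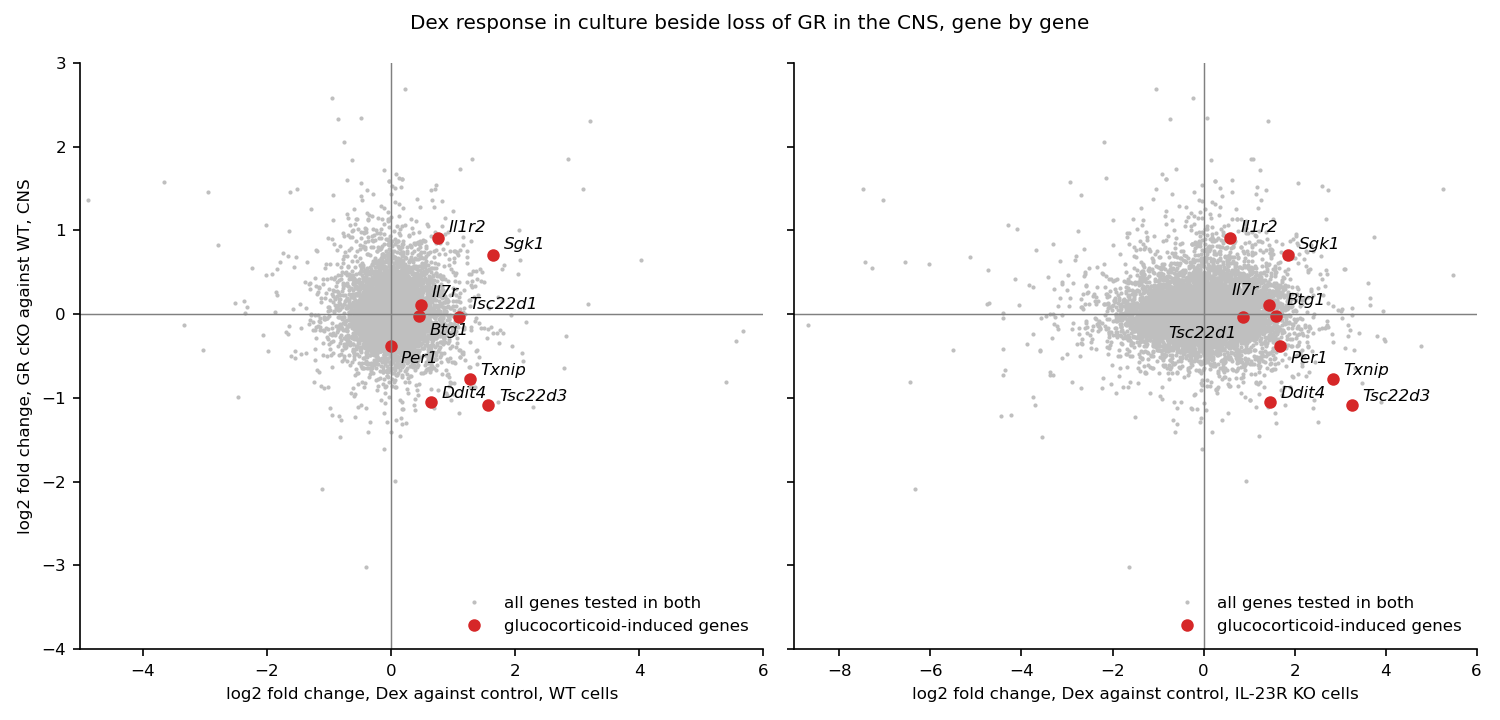
Log2 fold change with Dex (horizontal; WT cells left, IL-23R KO cells right, on different scales) against log2 fold change of GR cKO over WT in the CNS (vertical). Grey points are the 9973 genes tested in both, red points the 9 glucocorticoid-induced genes; Tsc22d3, Txnip and Ddit4 lie at the lower right (-1.09, -0.78 and -1.05 on the vertical axis), Sgk1 and Il1r2 at the upper right (0.71 and 0.91).

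Txnip was the gene whose pattern came closest to that of Tsc22d3. Over the 24 culture and GR libraries, the root mean square difference of their log2 scaled CPM, each centred within its table, was 0.26, the smallest of 5402 genes compared, where the median gene differed by 1.20. Of genes outside the 10, the closest were Mxd1 (0.48), Kbtbd11 (0.51), Sdcbp2 (0.51), Icos (0.52) and Pdcd4 (0.52). Among the 10, Ddit4 (0.65), Per1 (0.70), Btg1 (0.70) and Il7r (0.79) followed, and Sgk1 (0.96) and Il1r2 (1.28) were farther. These distances describe levels that also entered the tests above. With GR loss the log2 fold changes of Mxd1 (-0.16), Kbtbd11 (-0.69), Sdcbp2 (-0.39), Icos (-0.33) and Pdcd4 (-0.18) were smaller in size than that of Tsc22d3 (-1.09). None of them was called.

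The CHD1 comparisons asked whether the remodeller changed the same genes. In the CNS edgeR called 1 gene of 11157 (0.00896%) and none of the 9, with 3 of the 9 (Ddit4, Per1 and Il1r2) and 1326 genes at an unadjusted p under 0.05, and DESeq2 called 181 genes, Ddit4 among them. Ddit4 stood at 34.8, 38.7 and 31.4 CPM in CHD1 WT and at 22.0, 20.2, 24.4 and 24.9 CPM in CHD1 cKO libraries. The groups did not overlap, as in 2.19% of genes with the cKO lower, and the difference was -0.76 ± 0.15 (edgeR adjusted p = 0.171, DESeq2 adjusted p = 0.00859). Il1r2 stood at 23.7, 20.3 and 14.2 CPM in WT and at 9.16, 10.5, 21.0 and 7.34 CPM in cKO libraries, with cKO library 3 inside the WT range (-0.83 ± 0.33, edgeR adjusted p = 0.379). Per1 was 0.54 ± 0.22, Sgk1 0.39 ± 0.19 and Tsc22d3 0.34 ± 0.22, all with overlapping groups. Txnip (-0.16 ± 0.14), Btg1 (-0.06 ± 0.20), Il7r (-0.27 ± 0.26) and Tsc22d1 (-0.34 ± 0.37) were not called either. The macrophage and microglia sum was 4745 to 7041 CPM in WT and 5127 to 11048 CPM in cKO libraries, and the 6 dendritic cell markers summed to 45.8 to 78.4 and 108 to 172 CPM, without overlap. Their part in these values was not tested.

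In the dLN Tsc22d3 was the gene that stood out. It held 68.8, 98.1 and 98.3 CPM in CHD1 WT and 233, 284, 178 and 113 CPM in CHD1 cKO libraries, without overlap, as in 2.88% of genes with the cKO higher. The difference of 1.22 ± 0.23 did not pass in edgeR (adjusted p = 0.0655) and passed in DESeq2 (adjusted p = 2.30e-05), with no filter on low counts, in the fit of both tissues and without cKO library 4 (1.36, edgeR adjusted p = 0.00423). That library had the highest repeat and ribosomal RNA share of the dLN libraries (60.1%), and TMM scaling multiplied its CPM by 1.24. In the dLN edgeR called 7 of 9803 genes (0.0714%) and none of the 8 tested, with 1971 genes and 3 of the 8 (Tsc22d3, Sgk1 and Per1) at an unadjusted p under 0.05. DESeq2 called 385 genes and Tsc22d3 alone of the 8. Per1 was 0.76 ± 0.32 (8.20, 14.6 and 15.8 against 29.6, 14.3, 23.6 and 15.7 CPM) and Sgk1 0.44 ± 0.19, both with overlap. Ddit4 (0.29 ± 0.19), Btg1 (0.33 ± 0.16), Txnip (0.10 ± 0.21), Il7r (0.10 ± 0.27) and Tsc22d1 (-0.12 ± 0.48) were nearer 0. Il1r2, at 0.194 to 2.48 CPM, was not tested in this tissue. Marker sums moved with genotype here. The CD8 T and NK markers summed to 57.2 to 101 CPM in WT and 190 to 1001 CPM in cKO (Ncr1 at 0), the T cell markers to 18717 to 22060 and 7295 to 16507 CPM, and the naive and memory-like markers to 415 to 476 and 471 to 1206 CPM. Their part in the Tsc22d3 difference was not tested.

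The CHD1 effect was set between tissues by an interaction, the CNS effect minus the dLN effect, in the 14 CHD1 libraries joined from 2 tables. edgeR called 13 of 11589 genes (0.112%) and none of the 9. At an unadjusted p under 0.05, 2190 genes and 2 of the 9 passed, and DESeq2 called 563 genes with Ddit4 among them. Ddit4 was -1.06 ± 0.25 (edgeR adjusted p = 0.0748) and Tsc22d3 -0.88 ± 0.35 (edgeR adjusted p = 0.194). For Ddit4 the call was made without WT dLN library 3 or cKO dLN library 4 and with a minimum mean of 10 CPM.

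**Figure D4:**
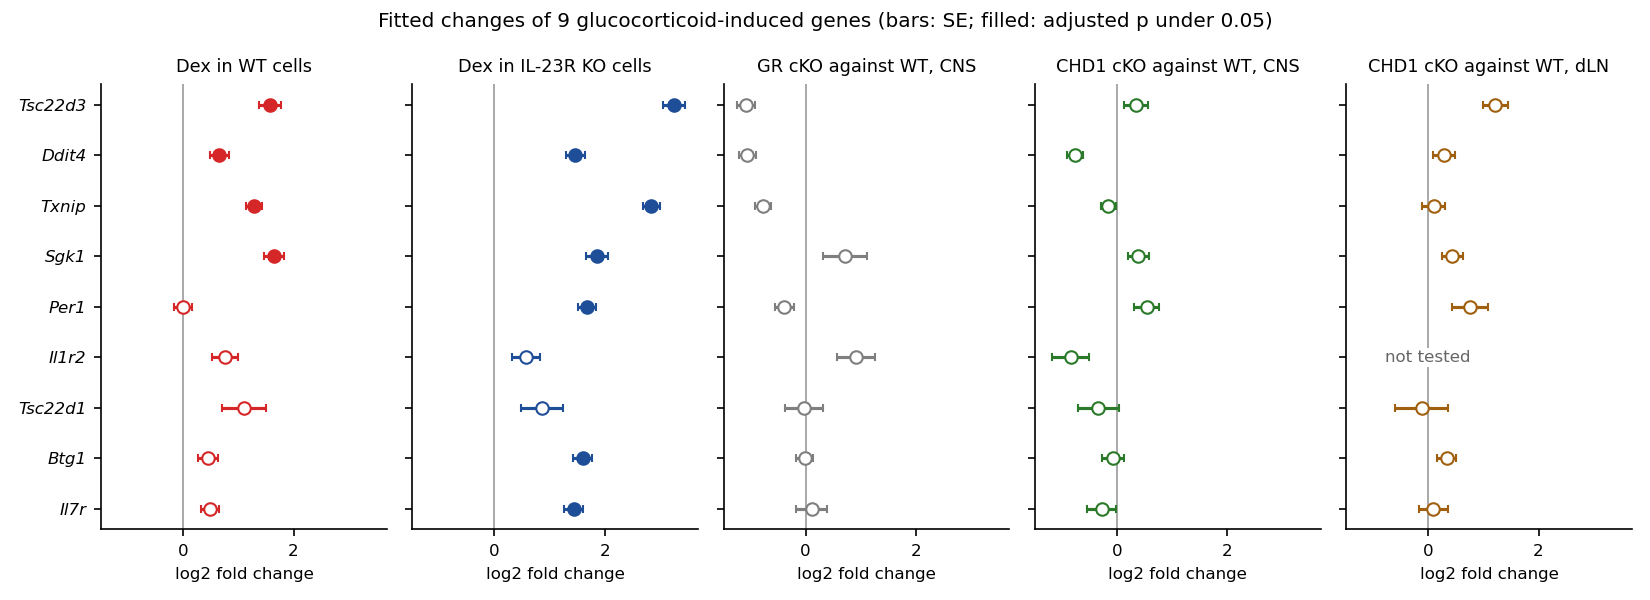
Log2 fold changes (horizontal, 1 shared scale) of the 9 tested genes in 5 comparisons; points are fitted values, bars their SE, and filled points have an edgeR adjusted p under 0.05. Filled points occur in the 2 Dex panels, 4 in WT and 7 in KO cells, and Tsc22d3 spans from -1.09 with GR loss to 3.26 with Dex in KO cells.

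Between tissues, in CHD1 WT cells, the 2 cytokine receptor genes moved in opposite ways and were the 2 of 9 genes called, where 16.7% of all genes were, 11.8% higher in the CNS and 4.93% lower. Il1r2 held 23.7, 20.3 and 14.2 CPM in the CNS and 2.48, 1.27 and 1.71 CPM in the dLN (2.98 ± 0.47, edgeR adjusted p = 4.87e-04). Il7r held 82.8, 55.2 and 51.5 CPM in the CNS and 139, 160.4 and 205 CPM in the dLN (-1.82 ± 0.32, edgeR adjusted p = 0.00121). Tsc22d3 (-0.33 ± 0.27), Txnip (-0.32 ± 0.20) and Ddit4 (-0.45 ± 0.19) were not called. Per1 (0.83 ± 0.32), Tsc22d1 (0.65 ± 0.48), Btg1 (0.46 ± 0.21) and Sgk1 (0.43 ± 0.21) had the opposite sign and were not called either. Tissue cannot be told apart from table in this comparison, and the macrophage and microglia sum was 4745 to 7041 CPM in the CNS against 114 to 161 in the dLN. The repeat and ribosomal RNA share was 19.0 to 33.2% in these CNS libraries and 42.4 to 54.9% in these dLN libraries.

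Per kilobase of exon, which allows levels of different genes to be ordered, the genes changed places between settings. In WT control cultures Il1r2 led with 61.3 ± 19.2 CPM per kilobase (SD, n = 4), ahead of Ddit4 (26.0 ± 4.65). Txnip (8.72 ± 0.43), Il7r (8.10 ± 1.03), Tsc22d3 (6.10 ± 0.90) and Per1 (6.04 ± 0.93) followed, with Txnip and Il7r, and Tsc22d3 and Per1, within their spread and Il7r above Tsc22d3 by more than their SDs. In GR WT cells of the CNS Txnip (33.5 ± 6.44) and Tsc22d3 (33.1 ± 7.04) led and did not differ beyond their spread, ahead of Sgk1 (13.2 ± 6.76), Il7r (12.1 ± 2.94) and Ddit4 (11.9 ± 1.35). There Il1r2 held 5.02 ± 2.34. In CHD1 WT cells of the dLN Il7r (36.0 ± 7.22) and Txnip (29.2 ± 6.81) led, with Il1r2 at 0.955 ± 0.322. Tsc22d1 and Klf9 were the last 2 of the 10 in each of these groups.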

How the data were processed

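Gene counts were those of 38 libraries made with a modified SMART-Seq2 protocol with 12 amplification cycles, per the labels. The deposited values were expected counts per gene symbol, made by the authors with RSEM 1.3.3 on mm10, per the submitters' processing notes. They were whole numbers in 4 tables, whose aligner, annotation and rounding step the available sources leave unstated. Gene positions and exon lengths came from GENCODE M21 and promoters from RefSeq.

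Tests used edgeR 4.0.16 in R 4.3.3 (filterByExpr with minimum count 10 and minimum total 15, TMM, quasi-likelihood F test, adjusted p under 0.05). Culture contrasts came from 1 fit of 16 libraries, GR from 8, CHD1 from 7 per tissue, and tissue and its interaction from 14. Limits for a count of 0 used 3 counts and cover counting error only. The code was tested on simulated data.

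The 10 genes and all lists were chosen with earlier results of these data known. All 10 were named, and of each list up to 4 called genes per direction with the largest change, from which the text gives a selection. Nearest genes to Tsc22d3 were the 5 with the smallest distance among genes with a mean of at least 10 CPM (prior count 2). Alternatives were DESeq2 1.42.0, its size factors, no filter, a minimum mean of 10 CPM, removal of repeat, ribosomal RNA and mitochondrial features, a replicate block, fewer or joined libraries, and each library left out.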

Additional observations from a re-analysis of the deposited data

Results flagged for a closer look

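Among 80 groups of 4 libraries tested, 1 held a library far from the others: Btg1 stood at 56.3 CPM in GR cKO library 7 and at 38.5 to 41.4 CPM in the other 3. By chance about 1 in 20 groups would stand out in this way. Without that library the GR cKO difference of Btg1 was -0.19 on the log2 scale.

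The Dex response differed between IL-23R KO and WT cells by the interaction test for 6 genes. The differences on the log2 scale were 1.68 for Tsc22d3, 0.82 for Ddit4, 1.56 for Txnip, 1.69 for Per1, 1.15 for Btg1 and 0.94 for Il7r, each a larger rise in KO cells.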

How the results depend on the processing

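Removing repeat, ribosomal RNA and mitochondrial features changed no call of the 9 genes and no count of genes by over 1.5 times. DESeq2 size factors moved 1 count, the CHD1 interaction (7 genes). With no filter on low counts, GR loss called 4 genes and 1 of the 10 (Tsc22d3), CHD1 loss 72 in the CNS and 511 in the dLN with 1 of the 10, and the CHD1 interaction 172. With DESeq2 the genes called were 122 for KO against WT without Dex, 122 for GR loss (3 of the 10), 181 for CHD1 in the CNS (1), 385 in the dLN (1) and 563 for the CHD1 interaction (1). With a minimum mean of 10 CPM the CHD1 interaction called 95 genes and 1 of the 10, and the tissue comparison 1225 and 1, since Il1r2 was then not tested. Per1 with Dex in WT cells turned to 0.013 and Btg1 with GR loss to 0.0094 there. A fit of only the 8 libraries compared called 42 genes for KO against WT without Dex. The fit of both tissues called 3 genes for CHD1 in the CNS and 192 in the dLN with 1 of the 10.

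The replicate numbers shared between groups did not pair the libraries, as same-numbered deviations correlated from -0.080 to 0.11. With a replicate block CHD1 loss called 3 genes in the CNS, 613 in the dLN with 1 of the 10 (Tsc22d3, 1.38, edgeR adjusted p = 0.00890) and 52 for the interaction. Within each tissue only the cKO has a library numbered 4. The block takes up that library, so it adds nothing to the genotype difference. The dLN block result is therefore not separate from the fit without cKO library 4. Btg1 turned to 0.058 in the CNS and Tsc22d1 to 0.15 in the dLN. No paired analysis was possible for GR loss or for KO against WT because those groups share no numbers.

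Leaving out 1 library at a time gave 531 (without WT control 2) to 829 genes for Dex in WT cells, with 571 without WT Dex 3. It gave 26 (without KO control 8) to 77 for KO against WT without Dex, with 34 without KO control 6 and 45 without WT control 1 or 4. It gave 0 to 2 for GR loss (2 without cKO 5), 0 to 2 for CHD1 in the CNS, and 0 to 990 in the dLN, where cKO 4 left out gave 990 and 1 of the 10 and the others 0 to 10. The CHD1 interaction gave 0 to 648, with 648 without dLN cKO 4, 24 without dLN WT 3 (1 of the 10 in both) and 0 to 28 otherwise. Opposite signs of Dex in WT cells and GR loss were counted in 3 (without GR cKO 5 or 6) to 6 genes. Genes that were not called and changed sign ranged as follows on the log2 scale. With Dex in WT cells Per1 ranged from -0.093 to 0.11. In the Dex interaction Il1r2 ranged from -0.41 to 0.028 and Tsc22d1 from -0.51 to 0.030. For KO against WT without Dex Btg1 ranged from -0.21 to 0.10, Ddit4 from -0.25 to 0.077, Il7r from -0.13 to 0.17, Per1 from -0.13 to 0.090 and Tsc22d3 from -0.33 to 0.059. With GR loss Btg1 ranged from -0.19 to 0.047, Il7r from -0.23 to 0.27 and Tsc22d1 from -0.24 to 0.27. With CHD1 loss Btg1 ranged from -0.23 to 0.15 in the CNS, and Il7r from -0.082 to 0.40, Tsc22d1 from -0.50 to 0.26 and Txnip from -0.12 to 0.37 in the dLN. In the CHD1 interaction Per1 ranged from -0.57 to 0.041, Sgk1 from -0.20 to 0.074 and Tsc22d1 from -0.62 to 0.17. The cause of these changes was not tested. Klf9, and Il1r2 in the dLN, had too few counts to pass the filter and were tested only with no filter.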

Other observations

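Between tissues in CHD1 WT cells, 9 of 21 other glucocorticoid-induced genes tested were higher in the CNS, 1 was lower and 11 were not called. Over all genes 16.7% were called, 11.8% higher in the CNS and 4.93% lower. Dusp1, a phosphatase that switches off MAP kinases, was higher by 4.79 ± 0.27 on the log2 scale (edgeR adjusted p = 5.12e-08), Zfp36, which speeds decay of cytokine transcripts, by 2.72 ± 0.21 (6.99e-07) and Il10ra, a chain of the interleukin 10 receptor, by 3.21 ± 0.34 (1.55e-05). Il6ra, a chain of the interleukin 6 receptor, was lower by -1.21 ± 0.30 (0.0123). Nr3c1 was higher in the CNS (1.17 ± 0.28, edgeR adjusted p = 0.0103). In the family of Klf9, Klf6 was higher (1.67 ± 0.17) and Klf2 lower (-2.03 ± 0.50) in the CNS. Tissue cannot be told apart from table here, and the macrophage and microglia markers, which were 4745 to 7041 CPM in the CNS and 114 to 161 CPM in the dLN, moved with it; their part was not tested.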
